A study of Mus musculus with 8 samples.

Results

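The genes described here are 9 members of the pathway that holds primordial follicles dormant or lets them start to grow: Pik3ca, Pdpk1, Akt1, Foxo3, Cdkn1b, Tsc1, Tsc2, Mtor and Rps6kb1. They were found by their symbols, 9 of the 45583 symbols in the count table of the series, and all 9 were among the 16601 genes with enough reads to be tested. The series holds whole-ovary RNA from 8 female C57/Bl6 mice aged 3 weeks, with 1 library per mouse. Labels give 4 libraries as WT (animals 1118, 1119, 1120 and 1121) and 4 as GOAT KO (animals 1139, 1140, 1141 and 1146), mice without ghrelin O-acyltransferase, the enzyme that adds the fatty acid to ghrelin. The mice were littermates from heterozygous parents, the knockout was not restricted to the ovary, and 1 ovary of each mouse was frozen and used whole, so every value is a mixture of oocytes, granulosa, theca, stromal, vascular and immune cells. The comparison asks whether the transcripts of this pathway differ between the label groups.

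Phosphoinositide 3-kinase (PI3K) is switched on in the oocyte by receptors such as KIT and makes a membrane lipid that brings the kinases PDK1 and AKT together. Active AKT phosphorylates the transcription factor FOXO3, which then leaves the oocyte nucleus, and releases mTOR complex 1 from its brake, the TSC1 and TSC2 proteins. Loss of Foxo3, Tsc1, Tsc2 or Cdkn1b in mice is known to wake the primordial follicle pool early. These steps work largely through phosphorylation and protein location, which RNA counts do not measure.

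Reads of the deleted gene were very few, and they were more numerous under the GOAT KO label. Mboat4, which encodes GOAT, had 1, 1, 1 and 3 reads in the libraries labelled WT and 5, 7, 7 and 8 in those labelled GOAT KO (exact two-sided permutation test of its share of reads, p = 0.0286, the smallest p that 4 against 4 allows). The count table does not say which part of the gene these few reads cover. All groups are therefore given as labelled, and each direction below rests on the labels. Libraries held 16147216 to 19481798 counted reads, and the 9 members had between 1312 and 5222 reads in any library. Library GOAT KO 1139 stood apart on the first axis of a multidimensional scaling of the libraries (1.21, the others from -0.47 to 0.17) and had a summed level of 6 adipose markers of 490.0 counts per 1000000 counted reads (CPM), against 13.8 to 31.8 in the other 7. Marker lists of oocytes, granulosa cells, theca cells, stroma, endothelium, leukocytes and surface epithelium were detected in every library. Because the study left out 1 library per group, which its text does not name, values are also given for 6 libraries, without WT 1120 and GOAT KO 1139. This pair was taken from an earlier analysis of these data and may not be the pair that the study left out.

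None of the 9 members passed an unadjusted p of 0.05 (edgeR quasi-likelihood test), against 4.62% of all genes tested. None had label groups that did not overlap, against 2.92% of all genes tested. The median log2 fold change of the members, labelled GOAT KO over labelled WT, was 0.0042, with 5 members above and 4 below 0, and the median over all genes tested was -0.00035. Their median absolute log2 fold change was 0.02, against 0.08 over all genes tested. The 95% intervals of all 9 lay within 0.5 of 0 on the log2 scale, as they did for 71.0% of all genes tested, and those of 8 lay within 0.3 of 0 (45.97% of all genes tested), the exception being Cdkn1b. Members were also steady from library to library: the median coefficient of variation over the 8 libraries was 5.05%, against 10.6% over all genes tested, and all 9 were below the median gene. Counting error alone gives at most 2.76% for a member. The genes tested reach down to far fewer reads than any member had, and low counts vary more. These comparisons of size, interval width and spread with all genes tested were not matched for level. In bulk RNA, fewer cells of a type and less RNA per cell cannot be told apart.

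**Figure D1:**
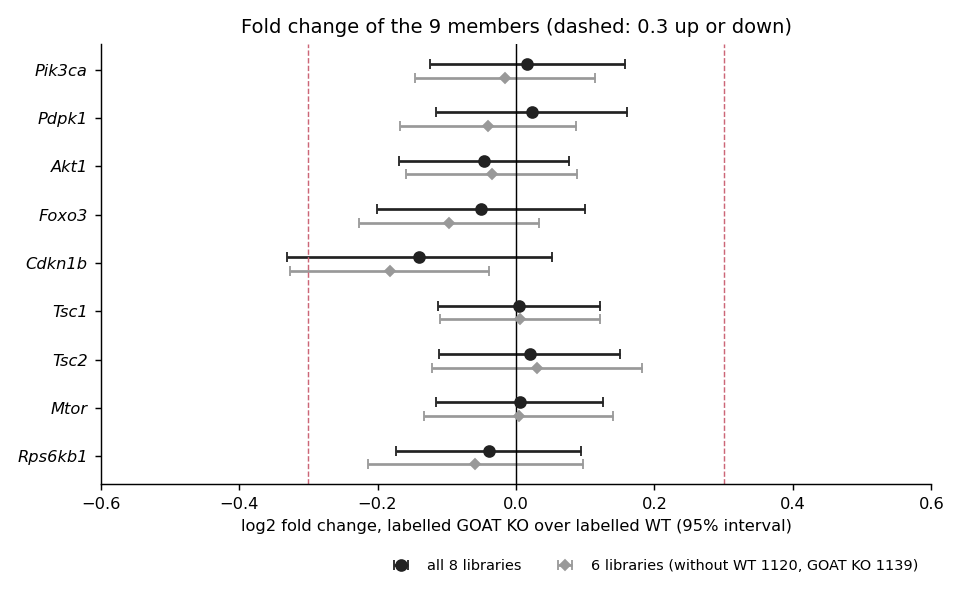
Log2 fold change of each member, labelled GOAT KO over labelled WT (horizontal axis), with its 95% interval from the edgeR fit over all 8 libraries (black circles) and over 6 libraries (grey diamonds). All black intervals cross 0, and the grey interval of Cdkn1b, from -0.33 to -0.04, is the one that does not.

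The kinases that carry the signal from the receptor to AKT came first. Pik3ca, the catalytic subunit p110 alpha of PI3K (chr3:32397671-32468486, plus strand, GRCm38), was at 129, 133, 116 and 137 CPM in the libraries labelled WT (1118, 1119, 1120 and 1121). Those labelled GOAT KO (1139, 1140, 1141 and 1146) had 126, 138, 125 and 132 CPM. The lowest library was WT 1120, and the groups overlapped along nearly their whole range. Labelled GOAT KO over labelled WT, the log2 fold change was 0.02 (SE 0.064, 95% interval -0.12 to 0.16, edgeR adjusted p = 0.989, exact permutation p = 0.8286). It was -0.02 with 6 libraries (adjusted p = 0.95).

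Pdpk1 encodes PDK1, the kinase that phosphorylates the activation loop of AKT and of S6 kinase (chr17:24073680-24150924, minus strand). It was at 84.1, 86.5, 76.5 and 90.3 CPM in the libraries labelled WT, in the order above, and at 89.0, 86.0, 82.1 and 85.8 CPM in those labelled GOAT KO. The labelled GOAT KO libraries all lay inside the labelled WT range. Its log2 fold change was 0.02 (SE 0.062, interval -0.11 to 0.16, edgeR adjusted p = 0.986, exact permutation p = 0.714), against -0.04 with 6 libraries (adjusted p = 0.849).

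Akt1, the gene of the kinase AKT1 (chr12:112653821-112674884, minus strand), had the highest level of the members. It was at 274, 264, 287 and 254 CPM in the libraries labelled WT. It was at 272, 259, 252 and 262 CPM in the libraries labelled GOAT KO. WT 1120 was the highest library, and the groups overlapped. On the log2 scale the change was -0.05 (SE 0.056, interval -0.17 to 0.08, edgeR adjusted p = 0.983, exact permutation p = 0.343), and -0.04 with 6 libraries (adjusted p = 0.869).

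Foxo3, the transcription factor that keeps the oocyte of a primordial follicle dormant while it is in the nucleus (chr10:42181841-42276755, minus strand), was at 146, 137, 144 and 132 CPM in the libraries labelled WT. In the libraries labelled GOAT KO it was at 152, 130, 127 and 132 CPM. Its highest library, GOAT KO 1139, and its 3 lowest, GOAT KO 1140, 1141 and 1146, carried the same label. Over all 8 libraries the log2 fold change was -0.05 (SE 0.068, interval -0.20 to 0.10, edgeR adjusted p = 0.983, exact permutation p = 0.514). The interval corresponds to a level in the labelled GOAT KO libraries between 13.0% lower and 7.11% higher. Without WT 1120 and GOAT KO 1139 the value was -0.10 (SE 0.059, interval -0.23 to 0.03, adjusted p = 0.61). Without GOAT KO 1139 alone it was -0.11 (SE 0.061, adjusted p = 0.97), more than 1.5 times the value over all 8 libraries.

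Cdkn1b, the cyclin-dependent kinase inhibitor p27 and a gene that FOXO factors induce (chr6:134920401-134925513, plus strand), spread most among the members, with a coefficient of variation of 10.4%. It was at 151, 158, 124 and 159 CPM in the libraries labelled WT. It was at 125, 149, 128 and 136 CPM in the libraries labelled GOAT KO. The lowest library of each group was the one left out of the 6, WT 1120 (124.4 CPM) and GOAT KO 1139 (124.9 CPM), and these were the lowest of all 8. Its log2 fold change was -0.14 (SE 0.087, interval -0.33 to 0.05, edgeR adjusted p = 0.983, exact permutation p = 0.257). The interval corresponds to a level between 20.5% lower and 3.64% higher in the labelled GOAT KO libraries.

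For Cdkn1b the call depended on 1 library. With 6 libraries the log2 fold change was -0.18 (SE 0.065, interval -0.33 to -0.04, adjusted p = 0.452), and it was the 1 member of 9 that passed an unadjusted p of 0.05, against 9.46% of the genes tested with these libraries. Without WT 1120 alone it was -0.22 (SE 0.067, adjusted p = 0.417), also past an unadjusted p of 0.05. In the 6 libraries Cdkn1b and Foxo3 were both lower in every labelled GOAT KO library than in every labelled WT library, 2 members of 9, against 7.55% of all genes tested. A comparison of 3 against 3 libraries cannot give an exact p under 0.1, and both genes were at that value. Neither gene passed an absolute log2 fold change of 0.3 in any of these fits.

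Tsc1 and Tsc2 encode the complex that restrains mTOR complex 1, hamartin and tuberin. Tsc1 (chr2:28641228-28691167, plus strand) was at 112, 111, 104 and 112 CPM in the libraries labelled WT and at 104, 114, 111 and 112 CPM in those labelled GOAT KO. It varied least of the 9 members (3.43%), and its lowest values, 104.3 and 104.1 CPM, were again in WT 1120 and GOAT KO 1139. The label groups differed by 0.0042 on the log2 scale (SE 0.053, interval -0.11 to 0.12, edgeR adjusted p = 0.995, exact permutation p = 0.886), and by 0.0057 with 6 libraries (adjusted p = 0.982).

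Tsc2 (chr17:24595816-24632630, minus strand) was at 154, 131, 145 and 143 CPM in the libraries labelled WT and at 143, 145, 151 and 141 CPM in those labelled GOAT KO. The highest and the lowest library, WT 1118 and WT 1119, both carried the WT label. Between the label groups the log2 fold change was 0.02 (SE 0.059, interval -0.11 to 0.15, edgeR adjusted p = 0.986, exact permutation p = 0.8), and 0.03 with 6 libraries (adjusted p = 0.91). The last exons of Tsc2 overlap exons of Pkd1 on the other strand over 693 bases, 7.2% of its exon length, and whether the counting used strand is not given in the sources used here, so reads of the 2 genes may be mixed there.

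Mtor, the kinase of mTOR complexes 1 and 2 (chr4:148448611-148557683, plus strand), was at 104, 111, 114 and 117 CPM in the libraries labelled WT. It was at 114, 106, 112 and 114 CPM in those labelled GOAT KO, all inside the labelled WT range. Its log2 fold change was 0.0055 (SE 0.055, interval -0.12 to 0.13, edgeR adjusted p = 0.995, exact permutation p = 0.886), and 0.0036 with 6 libraries (adjusted p = 0.989).

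Rps6kb1 encodes S6 kinase 1, which mTOR complex 1 activates to raise protein synthesis (chr11:86498871-86544805, minus strand). It was at 95.2, 85.2, 85.8 and 83.5 CPM in the libraries labelled WT. It was at 86.9, 80.2, 84.7 and 88.4 CPM in those labelled GOAT KO. WT 1118 was the highest library, and the other 7 lay between 80.2 and 88.4 CPM. On the log2 scale the change was -0.04 (SE 0.061, interval -0.17 to 0.09, edgeR adjusted p = 0.983, exact permutation p = 0.543), and -0.06 with 6 libraries (adjusted p = 0.81). Its exons overlap those of Rnft1 on the other strand over 155 bases, 1.79% of its exon length.

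**Figure D2:**
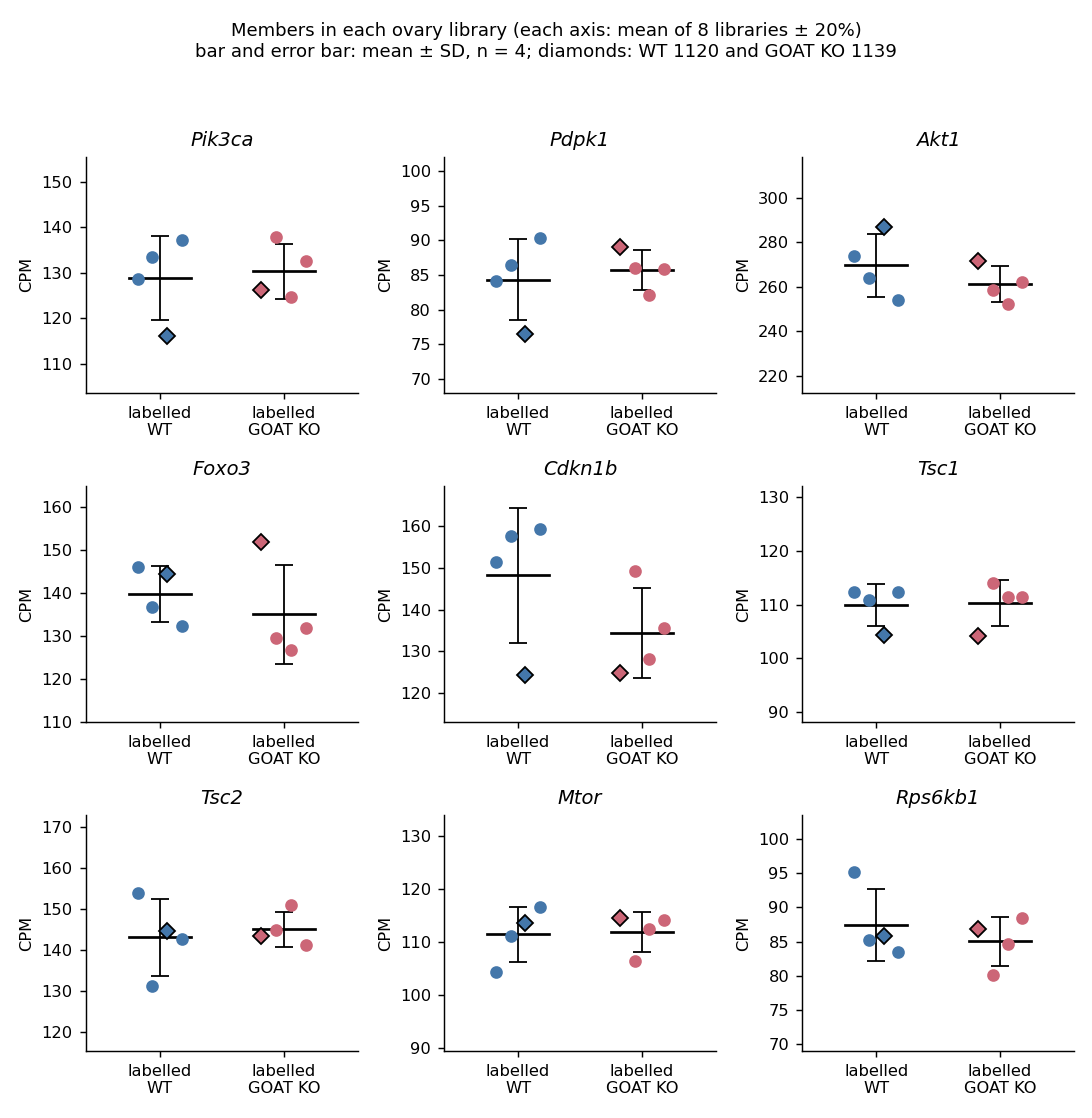
Level of each member in each library in CPM (vertical axes, each spanning the mean of the 8 libraries plus or minus a fixed percentage and not starting at 0). Points are libraries by label, the bar and error bar are the mean ± SD of 4, and diamonds are WT 1120 and GOAT KO 1139. The label groups overlap in every panel, and the diamonds are the lowest points of both groups for Cdkn1b and Tsc1.

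Levels between genes were compared per length, as CPM per kilobase of exon. Akt1 was highest at 64.8 CPM per kilobase (mean of the 8 libraries), followed by Cdkn1b at 31.1 and Foxo3 at 18.2. Tsc2 followed at 14.97, Pik3ca at 14.3, Mtor at 11.04, Rps6kb1 at 9.96, Tsc1 at 9.31 and Pdpk1 at 7.78. The order of Akt1, Cdkn1b, Foxo3 and Tsc2 was the same in 8 of 8 libraries, with ranges that did not overlap between neighbours. The ranges of 3 neighbouring pairs overlapped: Tsc2 was above Pik3ca in 5 of 8 libraries, Mtor above Rps6kb1 in 7 and Rps6kb1 above Tsc1 in 7. Among the 15820 genes tested that had an exon length, the members ranked from percentile 53.9 (Pdpk1) to 96.4 (Akt1), so all 9 were above the middle of this ranking.

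Several members were then set beside their closest relatives, to see how much of the family's transcript each carried. Per length, Pik3ca was 42.7% ± 4.29 (SD, n = 4) of 3 class I catalytic subunits in the libraries labelled WT and 40.7% ± 2.15 in those labelled GOAT KO, with Pik3cd at 17.0 and 18.5 CPM per kilobase and Pik3cb at 2.11 and 2.35. Per length, Pik3cd, the delta isoform known best from leukocytes, was thus at or above the level of Pik3ca in these ovaries. This order depended on the division by exon length. In CPM Pik3ca was the higher, with means of 128.8 (labelled WT) and 130.3 (labelled GOAT KO), against 106.4 and 116.0 for Pik3cd. Its share of the raw counts of the 3 subunits was 51.5% and 49.5%. The gamma subunit, Pik3cg, was not counted in the Pik3ca share.

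Foxo3 was a small part of the transcripts of Foxo1, Foxo3 and Foxo4, 11.1% ± 0.964 in the libraries labelled WT and 10.5% ± 1.08 in those labelled GOAT KO. Foxo6 was not counted in this share. Foxo1, which is known for high expression in granulosa cells, was at 132 and 135 CPM per kilobase, and Foxo4 at 17.1 and 17.8. Cdkn1b was 85.2% ± 2.91 and 85.6% ± 3.50 of the CIP/KIP inhibitors, with Cdkn1a (p21) at 2.27 and 1.69 CPM per kilobase and Cdkn1c (p57) at 3.33 and 3.27. Tsc1 was 38.5% ± 1.77 and 38.2% ± 1.03 of Tsc1 plus Tsc2. Mtor was 47.7% ± 2.37 and 48.1% ± 2.29 of Mtor plus Rptor and Rictor, the scaffold proteins that define mTOR complexes 1 and 2. The 5 shares differed between the label groups by 0.29 to 1.97 percentage points in size, with exact permutation p from 0.371 (Foxo3) to 0.886 (Tsc1), and 0.886 for each after adjustment over the 5.

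**Figure D3:**
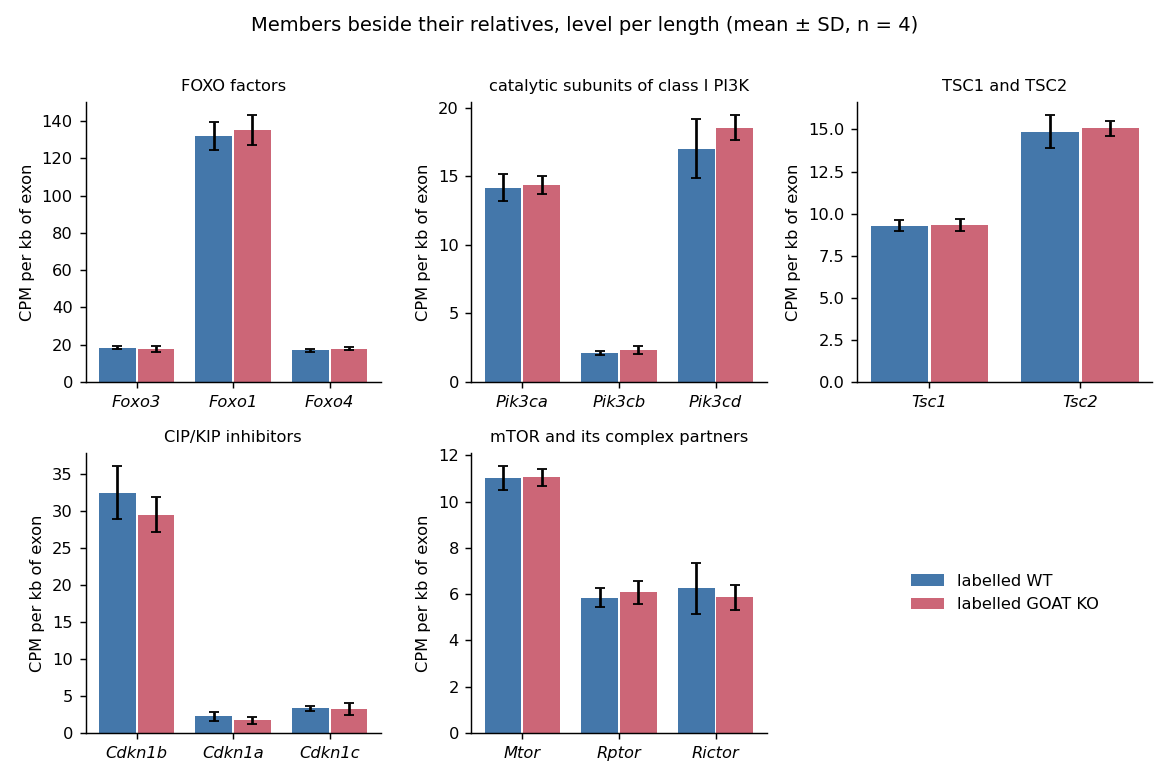
Mean level of each member and its relatives in CPM per kilobase of exon (vertical axes from 0, bars with SD over 4 libraries per label). Cdkn1b stands far above its relatives, Foxo1 at 132 and 135 stands far above Foxo3 and Foxo4, and the label groups differ most, relative to their level, for Cdkn1a (2.27 and 1.69).

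The relative of Rps6kb1 could not be read from the gene counts. Rps6kb2, the gene of S6 kinase 2 (chr19:4153991-4163354, minus strand), is listed at 0 in all 8 libraries. The splice junction files nevertheless held 1616 spliced reads inside the gene and on its strand, 190, 208, 190 and 226 in the libraries labelled WT and 168, 190, 247 and 197 in those labelled GOAT KO. Rps6kb1 had 1571 spliced reads in all. On spliced reads, which were used for this pair after the zeros were seen, Rps6kb1 was 48.5% ± 3.10 of the S6 kinase reads in the libraries labelled WT and 50.2% ± 3.23 in those labelled GOAT KO (difference 1.67 percentage points, exact permutation p = 0.457; with 6 libraries -0.42, p = 1.0).

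Reads that cross splice junctions gave a second readout of the members, from other files than the gene counts though from the same reads. The members had 358 (Foxo3) to 12656 (Akt1) spliced reads over the 8 libraries, and at least 95.8% of them fell on annotated introns. Scaled to 1000000 junction reads per library, none of the 9 reached p 0.05 between the label groups (exact permutation p from 0.0857 for Tsc2 to 0.943 for Pdpk1, and 0.686 or more after adjustment over the 9). Foxo3 was at 17.4, 20.3, 11.5 and 11.8 spliced reads on this scale in the libraries labelled WT and at 17.0, 15.04, 15.4 and 17.4 in those labelled GOAT KO. Here the labelled GOAT KO libraries lay inside the labelled WT range, and the log2 ratio of the means was 0.09 (exact permutation p = 0.657), of the other sign than in the gene counts. With 6 libraries it was -0.05 (exact permutation p = 0.9).

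Tsc2 was at 237, 216, 275 and 244 spliced reads on this scale in the libraries labelled WT and at 263, 281, 280.3 and 258 in those labelled GOAT KO. The log2 ratio was 0.15 (exact permutation p = 0.0857), and without WT 1120, the highest library of its group, it was 0.22 (exact permutation p = 0.0286, the smallest p possible, before any adjustment). The gene counts of Tsc2 gave 0.02 on the same scale.

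Cdkn1b has few introns, and its spliced reads were uneven. They were at 79.6, 40.9, 33.6 and 44.0 on this scale in the libraries labelled WT and at 35.9, 39.9, 36.4 and 27.0 in those labelled GOAT KO. WT 1118 was far above the other 7 libraries. Its excess was in 1 intron (chr6:134921395-134921955), with 186 reads against 50 to 104 in the other libraries, while the next intron (chr6:134922084-134924242) had 20 reads there against 26 to 38. The log2 ratio of the label groups was -0.51 (exact permutation p = 0.171). Without WT 1118 it was -0.18, without WT 1120 it was -0.66 (exact permutation p = 0.0286, the smallest possible, before adjustment), and with 6 libraries it was -0.67 (exact p = 0.1, the smallest possible).

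Alternative splicing of the members was concentrated in the TSC genes. Of 37 splice sites in 7 members that joined to more than 1 partner and had at least 20 reads, 7 gave over 10% of their reads to a second partner, and all 7 belonged to 4 choices in Tsc2 and Tsc1. The sequences of these 4 choices are shown because they are the parts of the TSC transcripts that differ between molecules in these ovaries. Each is written 5′ to 3′ on the gene's strand from GENCODE M21 transcripts of GRCm38, with the bases that splicing includes or omits in capitals and 20 bases of the neighbouring exons in lower case.
Tsc2 cassette exon of 129 bases: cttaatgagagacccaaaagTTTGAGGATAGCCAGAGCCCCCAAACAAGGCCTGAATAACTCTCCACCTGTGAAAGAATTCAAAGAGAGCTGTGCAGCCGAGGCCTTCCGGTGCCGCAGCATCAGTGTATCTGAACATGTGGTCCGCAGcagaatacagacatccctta
Tsc2 acceptor stretch of 3 bases: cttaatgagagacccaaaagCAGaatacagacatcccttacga
Tsc2 cassette exon of 69 bases: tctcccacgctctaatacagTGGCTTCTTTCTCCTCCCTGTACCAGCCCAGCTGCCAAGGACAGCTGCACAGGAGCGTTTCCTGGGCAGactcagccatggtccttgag
Tsc1 acceptor stretch of 15 bases: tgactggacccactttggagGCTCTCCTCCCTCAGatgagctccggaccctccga
All 4 lie in coding sequence and are a multiple of 3 bases long, so that either choice keeps the reading frame.

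The Tsc2 exon of 129 bases (chr17:24606224-24606352) was in 38, 40, 42 and 29% of the transcripts, by spliced reads, in the libraries labelled WT. In those labelled GOAT KO it was in 29, 38, 47 and 44%. The group means were 37.0% ± 5.72 and 39.5% ± 8.12 (SD, n = 4), a difference of 2.49 percentage points (exact permutation p = 0.571). The 69-base exon (chr17:24601389-24601457) was included at 36.6% ± 9.63 and 42.2% ± 7.70 (exact permutation p = 0.4). For both exons, therefore, the form that skips the exon was the commoner one in each group mean, and the groups overlapped.

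The 3-base stretch at the start of the exon that follows the 129-base exon (chr17:24604990-24604992) was kept in 65, 33, 67 and 51% of the reads in the libraries labelled WT and in 62, 65, 72 and 76% in those labelled GOAT KO. The labelled GOAT KO libraries were close together and the labelled WT libraries were not. The choice rested on 236 reads in all, as few as 15 in a library, and whether this spread exceeds counting error was not tested. The difference was 14.5 percentage points (exact permutation p = 0.171), and it was 21.0 with 6 libraries (p = 0.2). The 15-base stretch of Tsc1 (chr2:28678952-28678966) rested on 69 reads in all, as few as 2 in a library, and ranged from 14.3% to all of a library's reads, so no difference was detectable at this depth (exact permutation p = 0.486). After adjustment over the 4 choices every p was 0.571, and none of the 37 splice sites had an exact p under 0.05 (smallest 0.114, and 0.2 with 6 libraries). A junction that the aligner did not report counts as 0 here, which adds to the spread of sites with few reads.

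**Figure D4:**
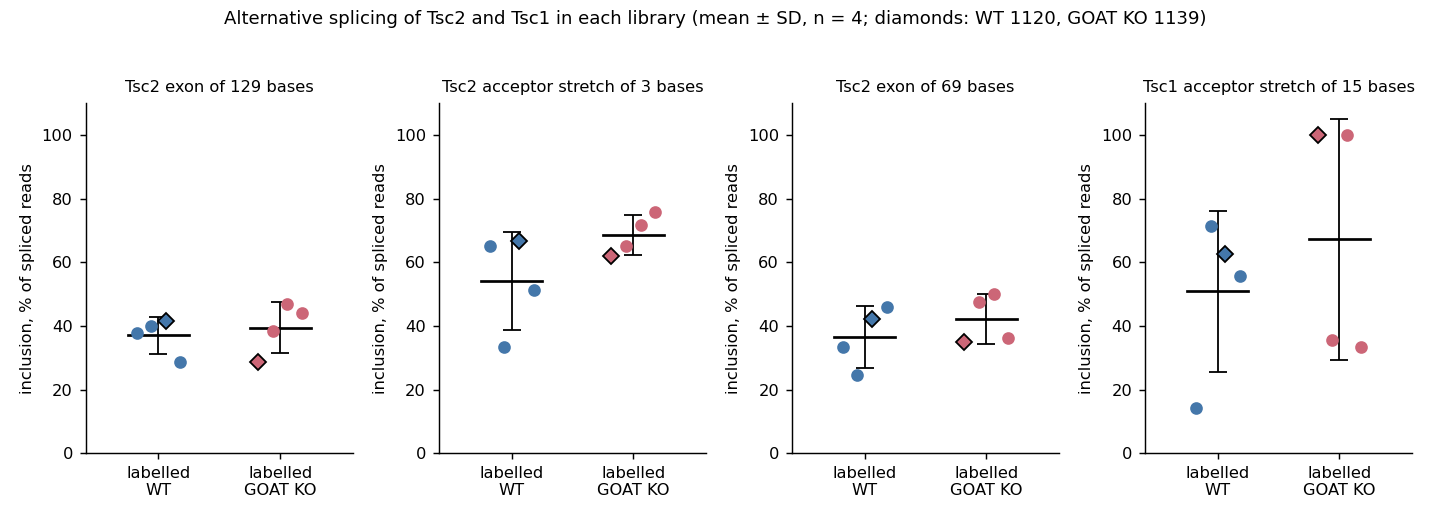
Inclusion of the 4 alternative parts of Tsc2 and Tsc1 in each library, in percent of the spliced reads that decide the choice (vertical axes), by label with mean ± SD of 4. Diamonds are WT 1120 and GOAT KO 1139. Both Tsc2 exons sit below 51% in every library, and the Tsc1 stretch runs from 14.3% up to all reads.

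The rest of the pathway was described with 12 lists that together hold 146 distinct genes, the 9 members included, of which 143 were tested. At an unadjusted p of 0.05, 8 of them passed, against 4.62% of all genes tested. Of these 8, 4 were also more than 0.3 from 0 on the log2 scale, and 2.85% of all genes tested passed both limits. None of the 8 passed an adjusted p of 0.05, as 0.0241% of all genes tested (4 genes) did. The median log2 fold change of the 143 was -0.01. With 6 libraries 16 passed the p, against 9.46% of all genes tested, and 5 passed both limits, against 4.77%.

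No gene passed both limits in 10 of the 12 lists. In the receptors and adaptors that feed PI3K, among them Kit and Kitl, 0 of 9 passed and Grb10, which had the smallest p, was at 0.09 on the log2 scale (SE 0.085). With 6 libraries 2 of these 9 passed the p alone (9.46% of all genes tested), Igf1r at -0.24 and Kitl at 0.14. Both values were added after they were seen. In the PI3K subunits 0 of 9 passed, and Pik3r5, a regulatory subunit of the gamma kinase, was at -0.39 (SE 0.26). Pik3r5 had only 9 to 18 reads per library. With 6 libraries 1 of the 9 subunits passed the p alone (9.46% of all genes tested), Pik3cd at 0.195. In the phosphatases that remove the PI3K lipids 0 of 6 passed, with Inpp4a at 0.12. In the AKT kinases, activators and phosphatases 0 of 8 passed, and Trib3, a pseudokinase that binds AKT, was at -0.61 and at -0.19 with 6 libraries. WT 1120 was at 4.99 CPM of Trib3, GOAT KO 1139 at 2.39 and the 6 libraries at 0.73 to 1.59.

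Around mTOR, 0 of 11 genes of complexes 1 and 2 passed (Mapkap1, a subunit of complex 2, at -0.08), and 0 of 5 of the TSC complex and RHEB (Rhebl1 at 0.15). With 6 libraries 2 of the 11 passed the p alone (9.46% of all genes tested), Rictor at -0.15 and Mlst8 at 0.17. Both values were added after they were seen. In the S6 kinase and translation branch 0 of 11 tested genes passed, with values from -0.04 (Eif4g1) to 0.06 (Eif4ebp3). Eif4ebp3 had only 13 to 20 reads per library and Rps6 only 12 to 41 (interval -0.67 to 0.75). Both were named for their low reads, and neither value can show a difference or its absence. Rps6kb2 is listed at 0 despite 1616 spliced reads, so a low count here need not give the level of a transcript. Whether reads of Rps6 were lost in the counting was not tested. Of the 28 amino acid and energy inputs to mTOR complex 1, 3 passed the p (4.62% of all genes tested) and none was also over 0.3. They were Sesn2, a stress-induced inhibitor of complex 1, at -0.28 (SE 0.12), and Lamtor1 and Lamtor2, subunits of the lysosomal anchor of complex 1, at 0.19 (SE 0.086) and 0.16 (SE 0.073). These calls depended on the libraries. With 1 library left out, Sesn2 (-0.37 to -0.18) still passed in 3 of 8 fits, without WT 1119, WT 1121 or GOAT KO 1139. Lamtor1 (0.14 to 0.27) did so in 1, without WT 1120, and Lamtor2 (0.14 to 0.21) in 2, without WT 1120 or GOAT KO 1146. With 6 libraries Lamtor1 passed, at 0.28, while Sesn2 was at -0.23 and Lamtor2 at 0.17, and neither passed. Lamtor2 was also above an unadjusted p of 0.05 in the alternative fits with RLE scaling, DESeq2 and limma-voom, and Sesn2 in that with limma-voom. Lamtor1 and Lamtor2 fell outside the naming rule and were named after their values were seen. Of the 4 FOXO factors none passed (Foxo6 at -0.27). Of the 13 CIP/KIP inhibitors and their partners 1 passed the p (4.62% of all genes tested). It was Cdk6, a G1 cyclin-dependent kinase, at 0.16 (SE 0.065). Cdk6 kept this call in 3 of 8 fits with 1 library left out (without WT 1118, WT 1119 or GOAT KO 1141; values from 0.12 to 0.20) and lost it with 6 libraries, at 0.11. The largest value of that list in size was Cdkn1a, at -0.43 (SE 0.22, edgeR adjusted p = 0.983), which did not pass, but with 6 libraries it was at -0.45 (SE 0.16, adjusted p = 0.447) and passed both limits.

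Of 24 FOXO target genes 22 were tested. Under the GOAT KO label 2 were called lower and none higher, where 1.27% of all genes tested were called lower. Of the 22, 15 had a negative and 7 a positive value, and 50.1% of all genes tested had a negative one. The list median was -0.04. Klf4, a transcription factor of growth arrest, was at 8.80, 7.89, 7.41 and 6.65 CPM in the libraries labelled WT and at 6.70, 5.68, 5.53 and 5.58 in those labelled GOAT KO. The groups overlapped only through WT 1121 and GOAT KO 1139. Between labels it fell by 0.39 on the log2 scale (SE 0.13, edgeR adjusted p = 0.983), and the unadjusted p stayed under 0.05 when any 1 of the 8 libraries was left out.

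Gadd45a, a gene of growth arrest and DNA damage, was at 62.3, 60.2, 44.2 and 53.8 CPM in the libraries labelled WT. It was at 34.3, 52.7, 41.2 and 45.6 CPM in those labelled GOAT KO. It fell by 0.34 on the log2 scale (SE 0.14, edgeR adjusted p = 0.983), and the unadjusted p rose above 0.05 when WT 1118, WT 1119, GOAT KO 1139 or GOAT KO 1141 was left out. In the same libraries the leukocyte markers had 3 of 7 genes called lower (1.27% of all genes tested) and none higher, with a summed level of 101 to 140 CPM in the libraries labelled WT and 77.8 to 108 CPM in those labelled GOAT KO; their part in the FOXO target values was not tested.

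The list of other genes of primordial follicle activation or dormancy had 2 of 26 genes called higher under the GOAT KO label and none lower, where 1.58% of all genes tested were called higher, and a median of -0.0015. With 6 libraries 1 was called higher, Sohlh1, and 1 lower, Bmp7, a ligand of the BMP family, at -0.34 (SE 0.13, edgeR adjusted p = 0.501). Over all 8 libraries Bmp7 was at -0.12 and did not pass. It was named after its values were seen, as was the value of Cdkn1a with 6 libraries. Sohlh1, a transcription factor of oocytes in small follicles, was at 1.36, 2.39, 2.09 and 2.67 CPM in the libraries labelled WT and at 1.97, 3.79, 6.19 and 3.60 in those labelled GOAT KO. GOAT KO 1139 lay among the labelled WT libraries and the other 3 above them. It rose by 0.87 on the log2 scale (SE 0.32, edgeR adjusted p = 0.983) and by 1.08 with 6 libraries (adjusted p = 0.339). Without WT 1118 or GOAT KO 1141 the unadjusted p was above 0.05.

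Figla, another oocyte transcription factor, was at 2.11, 2.17, 1.98 and 2.40 CPM in the libraries labelled WT and at 2.87, 3.36, 3.53 and 2.09 in those labelled GOAT KO. It rose by 0.46 on the log2 scale (SE 0.19, edgeR adjusted p = 0.983), but the unadjusted p was above 0.05 with 6 libraries and without WT 1118, WT 1119, WT 1120, GOAT KO 1140 or GOAT KO 1141. Both genes had few reads, 22 to 121 per library for Sohlh1 and 34 to 69 for Figla. The 8 markers of oocytes in small follicles, which include both, summed to 166 to 198 CPM in the libraries labelled WT and 155 to 201 CPM in those labelled GOAT KO (exact permutation p = 0.857). Kit alone had means of 90.9 and 87.9 CPM, so this sum says little about genes as low as Sohlh1 and Figla. On the log2 scale 6 of the 8 values were above 0 and 2 below, with a median of 0.15. Granulosa markers, a list not limited to small follicles, had 4 of 10 genes called higher (1.58% of all genes tested) and none lower. The 4 were Inhba, Fshr, Fst and Hsd17b1. Of the 10 values, 8 were above 0 and 2 below, Foxl2 at -0.17 and Amh at -0.21. This list was chosen with earlier results of these data known, so its count of called genes is a description and not a test. The 10 markers summed to 5446 to 7363 CPM in the libraries labelled WT and 6531 to 7533 CPM in those labelled GOAT KO (exact permutation p = 0.114). Whether follicle make-up had a part in these values was not tested.

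**Figure D5:**
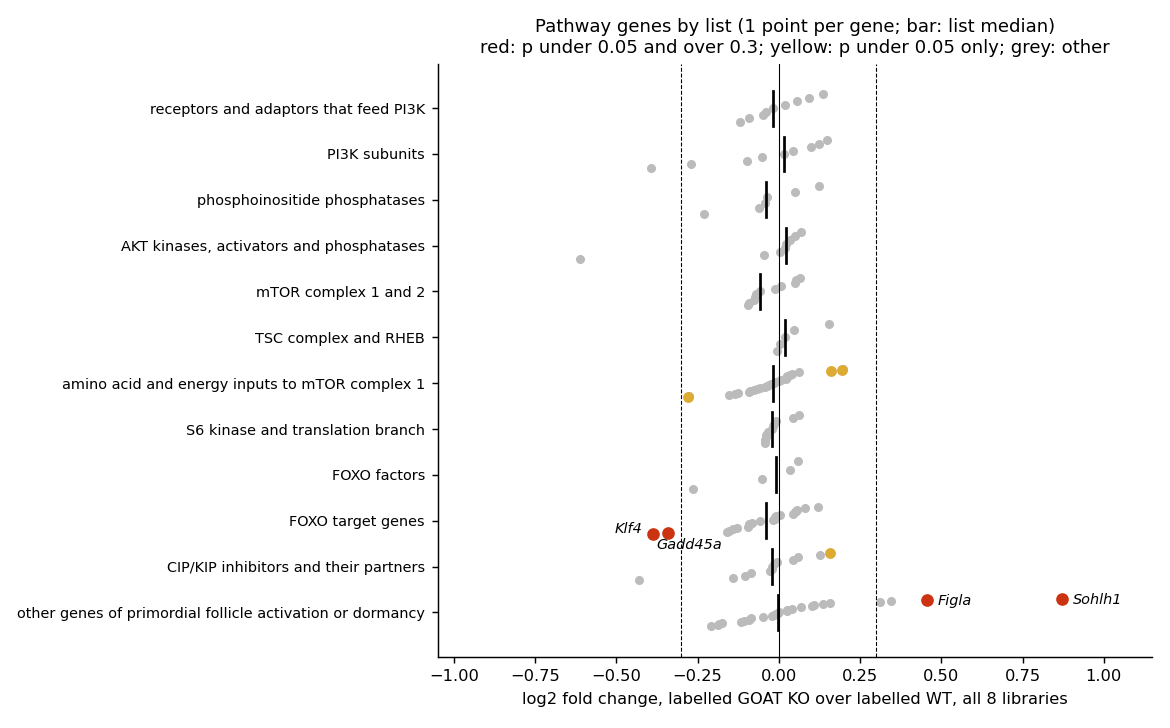
Log2 fold change of each tested pathway gene over all 8 libraries, labelled GOAT KO over labelled WT (horizontal axis), by list, with the list median as a bar. Red points (4 genes) passed an unadjusted p of 0.05 and lie more than 0.3 from 0, yellow points passed the p only, and most genes lie close to 0.

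The genes whose level followed Foxo3 most closely over the 8 libraries were Slc25a42, a mitochondrial carrier of coenzyme A (Pearson r of log2 CPM 0.969), Setd8, a histone lysine methyltransferase (0.968), and Bmp2k, a protein kinase (0.958). These were the top 3 of all genes tested, the libraries share their depth and cell make-up, and the values are a description.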

How the data were processed

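Total RNA of each ovary was sequenced as 50-base single reads. Per the paper's methods and the labels, the authors aligned the reads to mm10 (GRCm38) with TopHat 2.0.14, counted reads per gene and deposited raw counts per symbol, reads per splice junction, and a summary with percent of reads mapped (85.92 to 87.02 percent in the deposited table). The counter and its use of strand are not given in the sources used here. Assembled transcripts (StringTie 1.0.4) were not used.

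Here counts were tested in edgeR 4.0.16 (R 4.3.3; TMM scaling, filterByExpr with a minimum count of 10, quasi-likelihood test) over 8 libraries, with Benjamini-Hochberg adjustment over all 16601 genes. The script was tested on simulated data. CPM used the TMM-scaled library sizes, and level per length the union of GENCODE M21 exons. A gene counted as called when it passed an unadjusted p of 0.05 and lay more than 0.3 from 0 on the log2 scale. Shares and junction reads were tested by exact two-sided permutation over libraries, and the 4 splice choices and the S6 kinase share were added after the data were seen. Alternatives were RLE scaling, no filter, DESeq2 1.42.0, limma-voom (limma 3.58.1), 6 libraries, each library left out, raw-count shares, and junction minimums.

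Named were the members, their relatives, the deleted gene, the called genes of each list (at most 3, or else the smallest p) and the 3 genes closest to Foxo3. Members and lists were chosen with earlier results of these data known. Some genes of the lists, and the results that need them, are not reported here. Castor1 and Castor2 were read under the older symbols of the table (2 renamed). Replicates were separate mice, and no pair of libraries with the same label agreed within sampling noise (chi-square per gene 4.22 to 27.1). Depth was 16147216 to 19481798 counted reads per library, and intervals from counts of spliced reads cover counting error only where given.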

Additional observations from a re-analysis of the deposited data

Results flagged for a closer look

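Among 88 groups of 4 libraries tested for a single value apart from the others, 3 were past the limit, where chance alone gives about 1 in 20. Klf4 was at 6.70 CPM in GOAT KO 1139 and at 5.53 to 5.68 CPM in the other 3 labelled GOAT KO. In the same library the adipose markers summed to 490.0 CPM (18.8 to 31.8 CPM in the other 3) and the surface epithelium markers to 191.5 CPM (156.4 to 160.9 CPM).

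Rps6kb2 is listed at 0 in the gene counts, and the junction files, which the gene tests do not use, held 1616 spliced reads in it. The gene was spliced at 62.1 to 76.3 reads per 1000000 junction reads in every library, 71.5 ± 2.88 (SD, n = 4) in the libraries labelled WT and 69.9 ± 5.86 in those labelled GOAT KO (exact permutation p = 0.686). A zero in this count table is thus not a sign that a gene had no reads; why this gene is listed at 0 was not tested.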

How the results depend on the processing

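No paired analysis was possible because the label groups share no replicate numbers. Of 117 refits of the 9 members (RLE, no filter, DESeq2, limma-voom, 6 libraries, each library left out), 97 kept sign and call, 18 turned the sign of a value near 0 and 2 put Cdkn1b past p 0.05. Sign turned without the filter for Tsc1 (-0.0034) and Mtor (-0.0020), and with 6 libraries for Pdpk1 (-0.041) and Pik3ca (-0.016). Leaving out each library gave Tsc1 -0.024 to 0.031, Tsc2 -0.024 to 0.056, Mtor -0.025 to 0.029, Rps6kb1 -0.064 to 0.0032, Pdpk1 -0.026 to 0.054 and Pik3ca -0.034 to 0.045. The number of members with p under 0.05 was 0, 1 with 6 libraries and 0 to 1 with a library left out. Their median moved to -0.035 with 6 libraries and ranged from -0.026 to 0.012.

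Over all genes, 473 were called (918 without the filter, 793 with 6 libraries, 382 to 866 with a library left out), 767 had p under 0.05 (1219, 1574, 557 to 1769) and 4 passed the adjusted p (7, 20, 3 to 14, and 13 by DESeq2). Without WT 1120, 1769 had p under 0.05, and without GOAT KO 1139, 14 passed the adjusted p. Of the pathway genes 4 were called, 1 to 6 with a library left out (1 without GOAT KO 1141, 2 without WT 1118), with a median from -0.023 to -0.0084.

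Share differences in percentage points that turned sign ranged from -0.80 to 0.45 (TSC), -0.96 to 2.12 (CIP/KIP) and -0.30 to 1.495 (mTOR). Junction log2 ratios ranged from -0.025 to 0.26 (Foxo3; -0.048 with 6 libraries), -0.074 to 0.015 (Mtor), -0.0018 to 0.14 (Rps6kb1; -0.035), -0.11 to 0.22 (Pdpk1; -0.11) and -0.031 to 0.14 (Pik3ca). The 129-base exon of Tsc2 ranged from -0.27 to 6.14 percentage points, and the spliced S6 kinase share was -0.42 with 6 libraries. The cause of these turns was not tested. A minimum of 50 reads left the 37 splice sites as they were. Depth limits the Tsc1 choice most, at as few as 2 reads in a library.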
